A study of Saccharomyces cerevisiae with 12 samples.

Results

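The cytosolic ribosomal protein genes of budding yeast were followed as a group, with attention to the gene pairs that encode the same or a similar protein from different chromosomal positions. Members were all features whose standard name is RPL, RPS or RPP followed by a digit, leaving out RPP1 and the other RNase P subunits, and they numbered 137 of 6660 features in the deposited table. Of these, 56 encode proteins of the small (40S) subunit and 81 proteins of the large (60S) subunit. They form 78 families, of which 59 are pairs of an A and a B copy and 19 have 1 gene. An intron interrupts 89 of the genes.

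Messenger RNA came from diploid yeast of the laboratory strain BY4743. The groups were a strain without ATG1 (atg1Δ), a strain without ATG41 (atg41Δ, the gene also called ICY2) and the wild type (WT), with 4 libraries each and 12 in all. Autophagy encloses cytoplasm in membrane and carries it to the vacuole, where it is degraded. It is set off by the kinase that ATG1 encodes, and the product of ATG41 has a role in forming autophagosomes. All cultures, WT included, were moved from zinc-rich medium into zinc-limiting medium after 3 washes and grown in it for 8 h at 30 °C, so every comparison below is between zinc-deficient strains and none is with zinc-replete cells. Poly-A RNA was taken from 1 µg of total RNA extracted with hot phenol, and read single-end over 100 nt. Nothing in the labels says that the 4 libraries per strain are separate cultures. The spread behind each p-value is that of these libraries and may be technical. Whether the BY4743 deletion strains are 1 clone each is not given in the sources used here.

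Ribosomal proteins are made from some of the most heavily transcribed genes of growing yeast, and their mRNA level is known to follow growth conditions through the TORC1 kinase, protein kinase A and the factors Rap1, Fhl1, Ifh1 and Sfp1 at their promoters. Most families are held as pairs left by an ancient duplication of the whole genome. The encoded proteins of most pairs are identical or nearly so, but the copies differ in promoter, untranslated regions and intron, and are known to contribute unequally to the protein pool. Coding identity was lowest in the pair RPP1A and RPP1B (69.2%), called RPP1 below, and next lowest in RPP2A and RPP2B (73.6%).

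Because copies are alike, what a short read can tell about them depends on their sequence. The coding sequences of each pair were cut into all 100-nt windows, the read length, and a window was counted as informative when it did not occur in the other copy. All windows were informative in 42 of the 59 pairs, RPS9 among them, and fewer than 50% were informative in 7 pairs. The lowest value among pairs with windows was 23.1%, in RPL35, which encodes a 60S protein near the exit tunnel. Positions 1 to 100 of the coding sequence, shown to contrast a poorly resolved with a well resolved pair, are given 5′ to 3′ from the R64 genome with the bases that differ in capitals. RPL35A lies on chromosome IV at 117664-118517 and RPL35B on IV at 217600-218367, both on the plus strand. RPS9A lies on XVI at 404950-406044 and RPS9B on II at 604508-605508, both on the plus strand and each with 1 intron.

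RPL35A: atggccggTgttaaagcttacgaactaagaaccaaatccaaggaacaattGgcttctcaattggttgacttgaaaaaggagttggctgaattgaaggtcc

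RPL35B: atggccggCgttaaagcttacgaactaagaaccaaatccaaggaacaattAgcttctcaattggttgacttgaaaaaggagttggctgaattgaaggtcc

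RPS9A: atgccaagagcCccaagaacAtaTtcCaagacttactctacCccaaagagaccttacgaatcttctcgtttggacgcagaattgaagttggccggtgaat

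RPS9B: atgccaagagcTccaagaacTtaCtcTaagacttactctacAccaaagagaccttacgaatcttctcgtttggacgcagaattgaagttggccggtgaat

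The RPL35 copies differ in this stretch at T9C and G51A, counted from the first base of the start codon with the A copy's base first, and over the whole 363-nt coding sequence they differ at only 1 further position, T354C. The RPS9 copies differ at 5 positions in the same stretch and at 54 positions in all. RPL41A and RPL41B, 78-nt genes that encode the smallest ribosomal protein, are shorter than a read and were listed at 0 TPM in all 12 libraries. They did not pass the filter on low counts and were not in the main fit, and the 135 other members passed it. A fit without that filter held all 137 members, so these genes had some counts. TPM is a transcript level scaled to a fixed total per library that takes gene length into account and can be compared between genes.

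Library totals ranged from 9623157 to 11247182 expected counts. ATG1 had 0 counts in all 4 atg1Δ libraries and 988 to 1186 counts in WT. ATG41 had 1 count in 1 atg41Δ library and 0 in the other 3, and 7145 to 8973 counts in WT. ZRT1, the high-affinity zinc transporter gene that is switched on in zinc deficiency, was at 14829 to 15827 CPM (counts scaled to a fixed library total, not corrected for length) in atg1Δ, 7851 to 8930 CPM in atg41Δ and 13745 to 15175 CPM in WT. The library of atg1Δ replicate 1 stood apart from the other 3 of its strain: the chi-square per gene between it and them was 33.4 to 55.8, against 3.44 to 9.19 between all other replicate pairs. The main counts and medians of members that involve atg1Δ, and the named values that this library moved most, are also given without it. Counts over the other gene lists and shares of all genes are given only with it.

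Ribosomal protein mRNA took a smaller share of the transcriptome in atg41Δ. Members together held 6.80%, 6.64%, 6.91% and 6.76% of all TPM in the 4 atg41Δ libraries, and 12.3%, 13.0%, 12.9% and 11.7% in the 4 WT libraries. In atg1Δ they held 19.6%, 13.6%, 12.01% and 12.002%. The atg41Δ libraries lay close together and below every library of the other strains, while the atg1Δ libraries overlapped WT with replicate 1 far above. The means were 14.3 ± 3.6% in atg1Δ, 6.78 ± 0.11% in atg41Δ and 12.5 ± 0.58% in WT (SD, n = 4 each), and the atg1Δ mean was 12.5 ± 0.92% (n = 3) without replicate 1. Both subunits were lower. Genes of the 40S subunit held 3.16 ± 0.060% of TPM in atg41Δ and 5.64 ± 0.25% in WT, and genes of the 60S subunit 3.62 ± 0.054% in atg41Δ and 6.84 ± 0.33% in WT (SD, n = 4 each). These are shares of the RNA sampled, so less ribosomal protein mRNA per cell and more of other mRNA cannot be told apart.

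**Figure D1:**
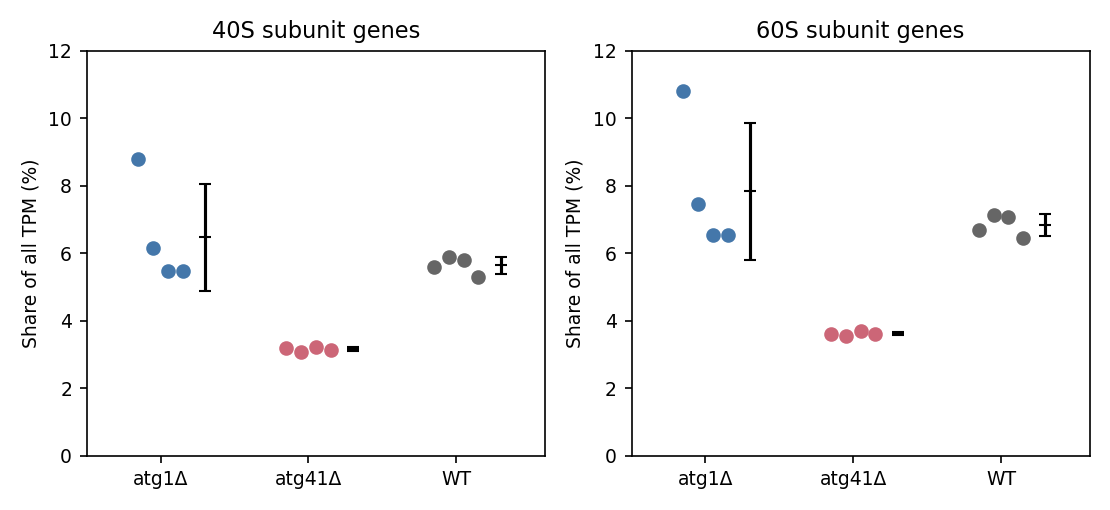
Share of all TPM (%) held by 40S (left) and 60S (right) ribosomal protein genes, 1 point per library for atg1Δ, atg41Δ and WT, with the mean and SD (n = 4) as a bar beside the points. The atg41Δ points lie near 3.16% and 3.62%, below all other points, and atg1Δ replicate 1 is the highest in both panels.

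Nearly the whole group was lower in atg41Δ. With edgeR's quasi-likelihood test, adjusted by Benjamini-Hochberg over 6195 genes, 125 of the 135 members tested fell in atg41Δ against WT, 0 rose and 10 were not called at an adjusted p of 0.05. Over all genes 35.9% were called lower and 29.9% higher in this comparison, so the strain differed from WT widely, and 92.6% of the ribosomal protein genes were on the lower side. The median log2 fold change of the members was -0.95, a level 0.517 times that of WT, where the median of all genes was -0.04. In 132 members all 4 atg41Δ libraries were below all 4 WT libraries, which held for 35.2% of all genes, and 58 members fell at least 2-fold, against 6.76% of all genes. By class, the calls and medians were spread over 40S genes (54 of 56 lower, median -0.91) and 60S genes (71 of 79 lower, median -1.02), in genes with an intron (85 of 89, median -0.96) and without (40 of 46, median -0.91), and in single-copy genes (18 of 19, median -0.95) and members of pairs (107 of 116, median -0.94). With atg1Δ replicate 1 left out of the fit, in which all strains share an estimate of the spread, 133 members were called lower. With a trend on base composition and gene length removed, 119 were lower, 1 was higher and the median was -0.75.

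**Figure D2:**
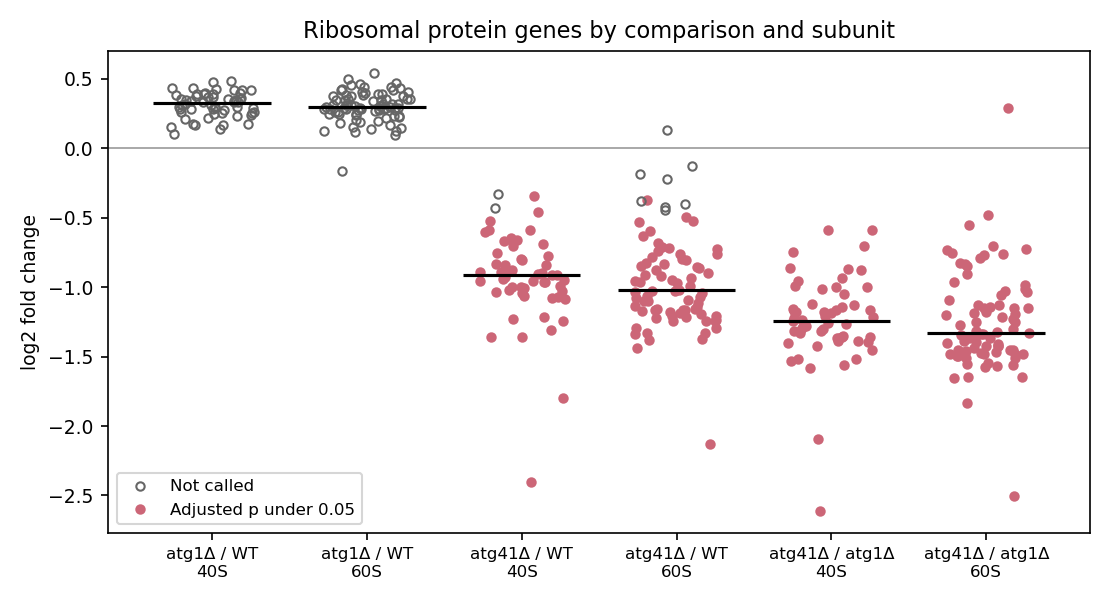
Log2 fold change (y axis) of each of the 135 members tested, split by comparison and by subunit (x axis), with filled points for an adjusted p under 0.05, open points for genes not called and a black line at each median. All but 1 of the points in the comparisons of atg41Δ lie below 0 in each comparison, and the atg1Δ against WT points are open.

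RPS9A fell most. It encodes a 40S protein of the uS4 family, whose bacterial member binds early to the small-subunit RNA. RPS9A had 32.5, 34.5, 28.6 and 33.9 TPM in atg41Δ, and 151, 178, 204 and 154 TPM in WT. The lowest WT library was above every atg41Δ library by a wide margin, and the fitted log2 fold change was -2.40 ± 0.17 (SE, edgeR adjusted p = 1.43e-07), a level 0.189 times that of WT. Its paralog RPS9B fell less, to 489, 477, 514 and 468 TPM in atg41Δ, against 768, 886, 902 and 789 TPM in WT (log2 fold change -0.78 ± 0.20, edgeR adjusted p = 0.00481).

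RPL8A, which encodes a 60S protein that takes part in early processing of the large-subunit RNA, had 70.4, 69.7, 80.6 and 86.6 TPM in atg41Δ, and 334, 347, 345 and 321 TPM in WT. Its log2 fold change was -2.13 ± 0.23 (edgeR adjusted p = 7.54e-06), while RPL8B changed by -0.92 ± 0.19 (edgeR adjusted p = 0.00132). RPS22B, the intron-bearing copy for a 40S protein, had 93.2, 92.8, 106 and 83.5 TPM in atg41Δ, and 314, 344, 355 and 303 TPM in WT, and changed by -1.80 ± 0.17 on the log2 scale (adjusted p = 2.99e-06 in edgeR). In each of these 3 genes the strains were separated by more than the whole range within either strain.

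The next 3 falls were in 60S genes. RPL29, a single-copy gene for a small protein that joins the large subunit late, averaged 587 ± 43 TPM in atg41Δ and 1597 ± 96 TPM in WT (SD, n = 4 each; log2 fold change -1.44 ± 0.21). RPL22B averaged 42.6 ± 2.7 TPM in atg41Δ and 111 ± 5.6 TPM in WT (-1.38 ± 0.19), and its more abundant paralog RPL22A fell almost as far (-1.30 ± 0.23). RPL16A averaged 219 ± 8.7 TPM in atg41Δ and 567 ± 30 TPM in WT (-1.37 ± 0.17), while its paralog RPL16B fell by 0.81 on the log2 scale.

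The members highest by TPM fell by less than the median member (-0.95), RPS31 only barely. In WT the 6 highest by TPM all encode 40S proteins: RPS29A (mean 2515), RPS31 (2312), RPS28A (2300), RPS30A (2287), RPS25A (1911) and RPS14A (1714). Their log2 fold changes in atg41Δ against WT were -0.64, -0.94, -0.34, -0.80, -0.71 and -0.52, in the same order. RPS29A, RPS30A and RPS28A have coding sequences of only 171, 192 and 204 nt. TPM here divides by coding length less a read, so their rank depends strongly on that correction. RPS28A had 1806, 1725, 1824 and 1884 TPM in atg41Δ, and 2389, 2262, 2401 and 2148 TPM in WT. The strains did not overlap, but the call was near the threshold (edgeR adjusted p = 0.0345) and was lost with DESeq2 size factors (0.0572), after removal of that composition and length trend (0.552), and with any 1 of 6 libraries left out. At the low end of the measured members, WT levels were 111 TPM for RPL22B, 111 for RPL15B, 147 for RPL7B and 171 for RPS14B. RPL7B averaged 62.2 ± 6.2 TPM in atg41Δ (log2 fold change -1.25 ± 0.14) and RPS14B 66.6 ± 7.0 TPM (-1.36 ± 0.13), so these minor copies fell further than their major partners RPL7A (-0.72) and RPS14A (-0.52).

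RPL15B was the exception. It is the minor copy of the pair for a 60S protein buried in the large-subunit RNA. Its TPM were 126, 125, 107 and 130 in atg41Δ, and 112, 108, 115 and 110 in WT. Replicate 3 of atg41Δ lay at the bottom and the other 3 atg41Δ libraries lay above all of WT, and the log2 fold change of 0.13 ± 0.07 did not pass (edgeR adjusted p = 0.129). It was the only positive value among the members, it became -0.0036 with equal totals in place of the scaling factors, and it passed at 0.16 (adjusted p = 0.0178) when the fit held only these strains. RPL15A, the major copy, had 781, 770, 853 and 790 TPM in atg41Δ, and 1365, 1493, 1433 and 1279 TPM in WT (log2 fold change -0.80 ± 0.14, edgeR adjusted p = 0.000263).

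The other 9 members not called lower had log2 fold changes from -0.44 to -0.13 in atg41Δ against WT. They were RPL11A, RPS2, RPL13A, RPL36B, RPP1A, RPS21A, RPL4B, RPL1A and RPL23A. RPL23A had 454, 433, 439 and 437 TPM in atg41Δ, and 492, 536, 453 and 450 TPM in WT, so the strains overlapped. Without atg1Δ replicate 1 in the fit, 8 of these 9 were called lower and RPL23A was not (-0.13, edgeR adjusted p = 0.119). In RPL1A, RPL4B and RPL11A fewer than 50% of the windows tell the copies apart, and the reads assigned to them are the least certain of the 9.

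RPL36B is the neighbour of the deleted gene. ATG41 lies on chromosome XVI at 74309-74719 and RPL36B at 75699-76239, both on the minus strand, with 979 bases between their coding sequences. The deletion is thus on the downstream side of RPL36B. RPL36B, which encodes a 60S protein, had 839, 852, 905 and 803 TPM in atg41Δ, and 1057, 1218, 1084 and 1144 TPM in WT. All atg41Δ libraries were below all WT libraries, and the change of -0.40 ± 0.18 on the log2 scale (adjusted p = 0.0695 in edgeR) passed without atg1Δ replicate 1 (2.38e-05), without atg1Δ replicate 3 (0.0440), with only these strains in the fit (1.44e-05) and with equal totals (0.00771). Its paralog RPL36A had 272, 257, 235 and 273 TPM in atg41Δ, and 457, 490, 498 and 424 TPM in WT (-0.85 ± 0.16, edgeR adjusted p = 0.000606). In atg1Δ, where ATG41 is intact, RPL36B averaged 1330 ± 359 TPM and RPL36A 491 ± 112 TPM (SD, n = 4 each), or 1153 ± 82 TPM and 436 ± 30 TPM without replicate 1 (n = 3). No member lies beside ATG1.

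The upstream sequence of RPL36B is shown because the gene borders the deleted one and holds a match to the Rap1 letters. The window runs from 350 to 51 bases before the start codon, 5′ to 3′ on the gene's strand, at chrXVI:76290-76589 (minus strand) in R64. Capitals mark the match to ACCCNTACA, which begins 314 bases before the start codon.

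RPL36B: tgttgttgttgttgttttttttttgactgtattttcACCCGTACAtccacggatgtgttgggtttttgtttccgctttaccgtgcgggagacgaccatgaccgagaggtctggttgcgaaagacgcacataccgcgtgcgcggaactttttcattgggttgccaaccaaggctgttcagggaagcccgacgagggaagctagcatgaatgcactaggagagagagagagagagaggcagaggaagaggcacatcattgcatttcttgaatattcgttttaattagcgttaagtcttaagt

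On either strand of the 500 bases before the start codon, ACCCNTACA occurred in 34 of 137 members (24.8%) and in 1.80% of 6000 nuclear protein-coding genes, members included. Within 300 bases it occurred in 8.03% of members and in 0.917% of 6001 genes. The other letters searched in the 500 bases were those of Abf1 (by its consensus, 4.38% of members and 3.15% of genes), Reb1 (TTACCCG, 5.11% and 10.1%), the PAC element (GATGAG, 21.9% and 28.3%) and the RRPE element (AAAATTTT, 12.4% and 12.4%). Among both copies of RPS9, RPL8, RPL23, RPS21, RPS22 and RPL15, only RPS21B held the Rap1 letters, beginning 342 bases before the start codon. These are matches of letters in a window and not measured binding. Matches of different motifs overlapped in 1 member, RPL36B, where an Abf1 match shares letters with the Rap1 match shown.

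The acidic stalk of the 60S subunit, which recruits translation factors, is built from RPP0 and from the P1 and P2 proteins. In atg41Δ against WT, 4 of its 5 genes fell. RPP2A fell most, to 355, 358, 412 and 352 TPM in atg41Δ, against 764, 843, 798 and 795 TPM in WT (log2 fold change -1.11 ± 0.26, edgeR adjusted p = 0.00282). RPP1B (-0.73 ± 0.21) and RPP2B (-0.71 ± 0.18) changed by less. RPP0, the single-copy anchor, averaged 684 ± 33 TPM in atg41Δ and 989 ± 62 TPM in WT (SD, n = 4 each), with an edgeR adjusted p of 0.0422 that did not hold with DESeq2 size factors (0.0578), in DESeq2 (0.0734), or with any 1 of 7 libraries left out (0.0514 to 0.0915). RPP1A averaged 767 ± 34 TPM in atg41Δ and 1002 ± 52 TPM in WT and was not called (-0.38 ± 0.17, edgeR adjusted p = 0.0646), although the libraries did not overlap. It was called without atg1Δ replicate 1 (2.03e-06), without atg1Δ replicate 3 (0.0411), with only these strains in the fit (3.72e-06) and with equal totals (0.00657). The ubiquitin fusion genes, whose products are cut into ubiquitin and a ribosomal protein, all fell. RPL40A averaged 668 ± 4.2 TPM in atg41Δ and 1209 ± 57 TPM in WT (-0.85 ± 0.15), RPL40B 442 ± 24 TPM in atg41Δ and 880 ± 77 TPM in WT (-0.99 ± 0.17), and RPS31 1202 ± 69 TPM in atg41Δ and 2312 ± 126 TPM in WT (-0.94 ± 0.22).

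Loss of ATG1 gave no called change in any member. In atg1Δ against WT, 0 of 135 members passed with edgeR, against 3.73% of all genes, and 0 passed in DESeq2. At an unadjusted p under 0.05 there were 23 members, where 21.2% of all genes reached it. The log2 fold change was above 0 in 134 members and in 48.5% of all genes, with a member median of 0.31. The size of this depended on atg1Δ replicate 1. Without it 107 members were above 0, 28 below, their median was 0.05 and 1 passed. In that fit the median of all genes was 0.0057 and 317 genes passed. The largest values were 0.54 ± 0.20 for RPL4B, 0.50 ± 0.27 for RPL9A, 0.48 ± 0.25 for RPS22A and 0.47 ± 0.21 for RPS4A. Without replicate 1, RPL9A was at 0.08, RPS22A at 0.08 and RPS4A at 0.17. RPL4B, for a 60S protein, had 966, 599, 530 and 557 TPM in atg1Δ, and 515, 506, 458 and 494 TPM in WT. Replicate 1 was far above the rest, the other 3 were still above all of WT, and RPL4B was the member that passed without replicate 1 (0.24 ± 0.07, edgeR adjusted p = 0.0463). RPL22B, RPL29, RPL36A, RPL7B and RPS14B turned to values below 0 without it, from -0.17 to -0.00048, and none passed. RPL15B was the only member below 0 with all libraries, at 77.5, 89.4, 115 and 92.5 TPM in atg1Δ, against 112, 108, 115 and 110 TPM in WT. Its value of -0.16 ± 0.07 did not pass (edgeR adjusted p = 0.224), and it did without atg1Δ replicate 3 (-0.26, adjusted p = 0.0188).

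The direct comparison of the deletion strains held the same atg41Δ libraries against atg1Δ instead of WT. In atg41Δ against atg1Δ, 134 of 135 members were called lower and 1 higher, where 33.0% of all genes were called lower and 31.0% higher. The median log2 fold change was -1.28, and it was -1.004 without atg1Δ replicate 1, with the same counts in each direction. The largest falls were RPS9A (-2.61 ± 0.17), RPL8A (-2.51 ± 0.23), RPS22B (-2.09 ± 0.17), RPL9A (-1.84 ± 0.28), RPL16A (-1.65 ± 0.17) and RPL9B (-1.64 ± 0.14). Without atg1Δ replicate 1 these were -2.42 for RPS9A, -2.18 for RPL8A, -1.87 for RPS22B, -1.41 for RPL9A, -1.40 for RPL16A and -1.44 for RPL9B, which put RPL9B ahead of RPL9A. RPL9A had 128, 129, 128 and 137 TPM in atg41Δ, and 702, 392, 304 and 310 TPM in atg1Δ, where replicate 1 was highest by far. The member called higher was RPL15B, with 126, 125, 107 and 130 TPM in atg41Δ, against 77.5, 89.4, 115 and 92.5 TPM in atg1Δ (0.29 ± 0.07, edgeR adjusted p = 0.0031). Its replicate 3 of atg41Δ lay within the atg1Δ range, and without atg1Δ replicate 1 it was at 0.25 (adjusted p = 0.00482).

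The balance between the copies of a pair was then followed as the share of the pair's TPM that came from the A copy. In WT the A copy led in all 4 libraries in 34 of the 58 measured pairs, the B copy led in 22, and 2 crossed. The copies were between 40% and 60% in 25 pairs, and the minor copy was below 25% in 8. The most unequal pairs were RPL15 (A copy 92.6 ± 0.49%), RPS14 (90.9 ± 0.35%), RPL18 (86.8 ± 0.47%) and RPL7 (86.2 ± 0.44%). The most equal were RPL21 (50.2 ± 1.0%), RPL24 (50.6 ± 0.53%), RPL11 (49.0 ± 1.1%) and RPS6 (51.3 ± 1.1%; SD, n = 4 each). In RPL11 and RPS6 fewer than 50% of the windows tell the copies apart, so an equal split there also depends on how the authors' counting divided shared reads.

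**Figure D3:**
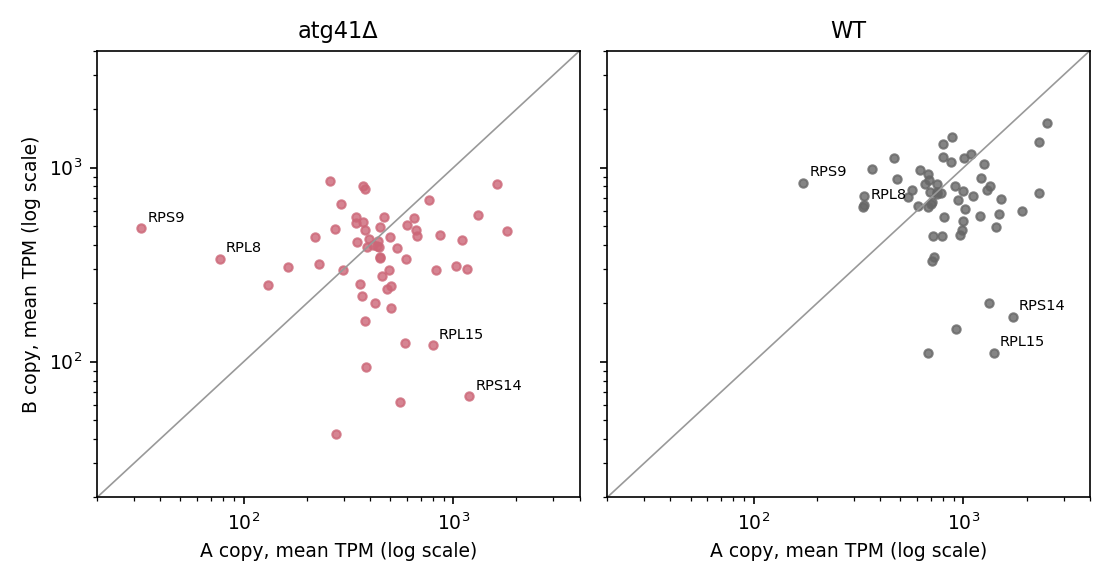
Mean TPM of the A copy (x axis, log scale) against the B copy (y axis, log scale) for 58 pairs in atg41Δ (left) and WT (right), 1 point per pair, with a line where the copies are equal. RPS9 and RPL8 lie further above the line in atg41Δ than in WT, with A shares of 6.25% and 18.4% in atg41Δ.

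The balance shifted in most pairs in atg41Δ. The log2 ratio of the A to the B copy, taken within each library and so free of library scaling, did not overlap between atg41Δ and WT in 43 of 58 pairs (74.1%). All 43 passed the exact two-sided permutation test over libraries after adjustment over the 58 pairs (p = 0.0286 raw, the smallest that 4 against 4 libraries can give, and 0.0385 adjusted). Over all genes 35.9% were called lower and 29.9% higher in atg41Δ against WT, and pairs of other genes were not set beside these in any comparison. Whether such shifts are particular to ribosomal protein paralogs was thus not tested. The shift was toward the A copy in 25 and toward the B copy in 18. It was at least 0.5 on the log2 scale in 15 pairs, the median size over all pairs was 0.30 and the largest was 1.62. Among the 42 pairs with all windows informative 32 did not overlap, and among the other 16 pairs 11 did not. Both copies were called lower in 49 pairs and 1 copy in 9, so most shifts were unequal falls. In atg1Δ against WT, 8 of 58 pairs (13.8%) did not overlap, 0 passed after adjustment (smallest adjusted p = 0.207, exact permutation test) and the median size was 0.07. Because the raw p cannot go below 0.0286, pairs pass the adjustment only when many reach that bound together. The 8 pairs could thus not pass whatever the size of their shifts. A limma fit, which has no such bound, also called 0. In atg41Δ against atg1Δ, 35 pairs (60.3%) did not overlap and passed (adjusted p = 0.0473, exact permutation test). With any 1 of these 8 libraries left out 0 passed (smallest adjusted p from 0.0518 to 0.0614, exact permutation test), while 36 to 42 passed in atg41Δ against WT with 1 of its 8 libraries left out.

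**Figure D4:**
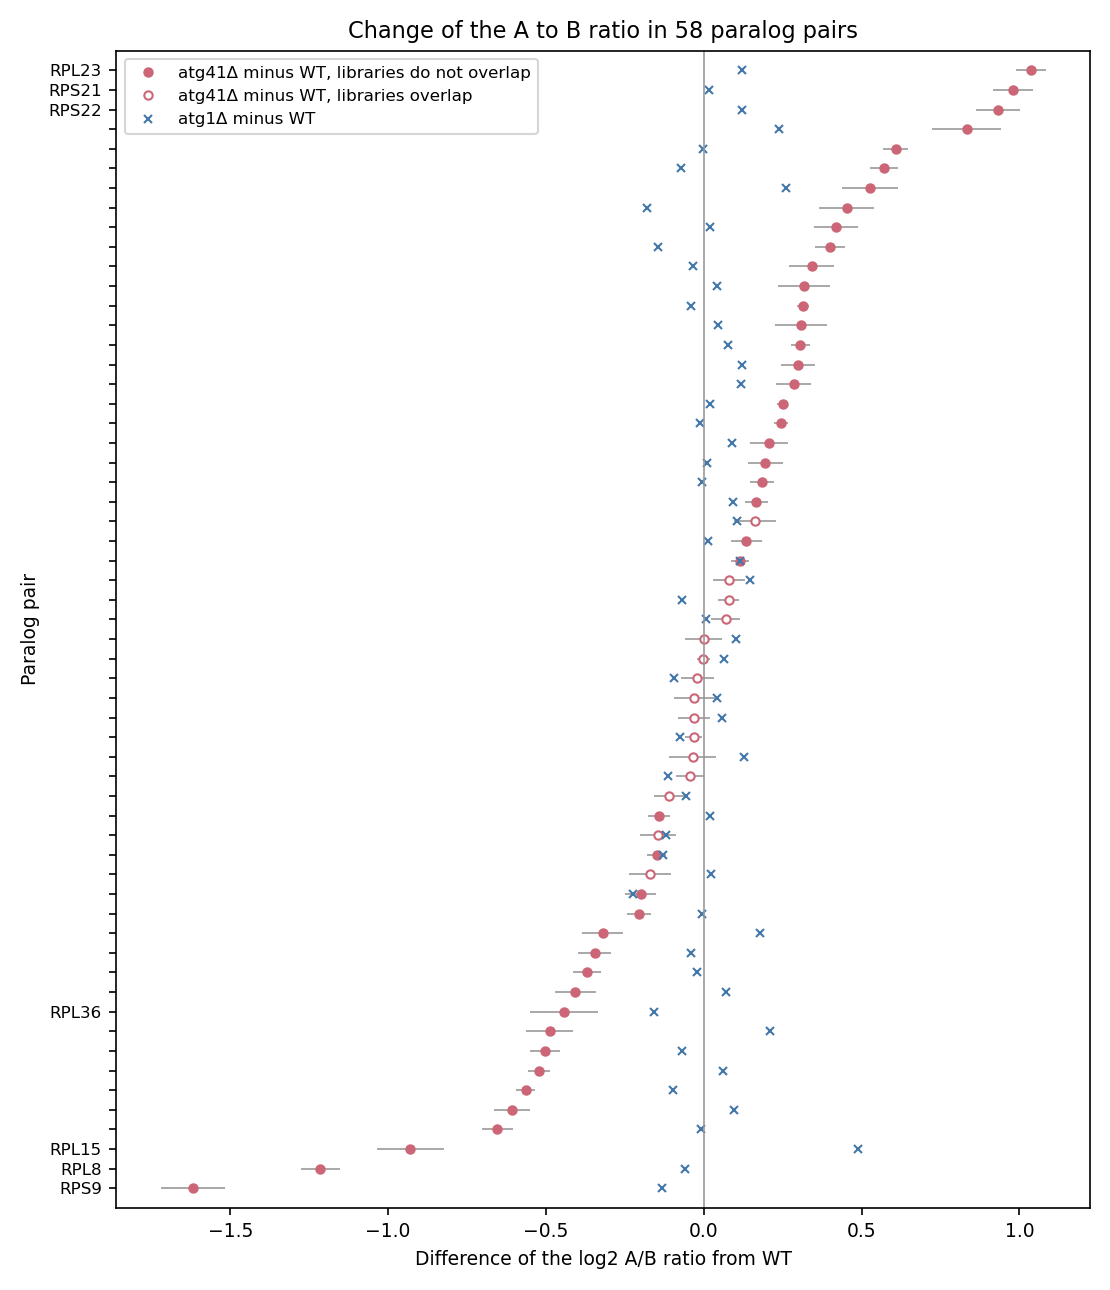
Difference from WT of the log2 A to B ratio (x axis) for each of 58 pairs (rows, with 7 pairs named), with circles and SE bars for atg41Δ minus WT, filled where the libraries do not overlap, and crosses for atg1Δ minus WT. The atg41Δ circles run from -1.62 in RPS9 to 1.04 in RPL23, and the crosses lie between -0.22 and 0.49.

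RPS9 shifted furthest. Its A copy gave 6.24%, 6.74%, 5.28% and 6.76% of the pair's TPM in atg41Δ, and 16.4%, 16.8%, 18.5% and 16.3% in WT, a difference of log2 ratio of -1.62 ± 0.10 (SE). RPL8 shifted the same way, with an A share of 17.9%, 17.8%, 17.7% and 20.4% in atg41Δ, and 34.2%, 34.1%, 34.1% and 35.2% in WT (-1.21 ± 0.06). In both, the copy that was minor in WT was more minor in atg41Δ.

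RPL23, for a 60S protein, changed its leading copy. The A copy gave 52.4%, 52.4%, 53.6% and 53.8% in atg41Δ, and 36.2%, 36.9%, 34.0% and 35.0% in WT (1.04 ± 0.05). RPL23B fell to 390 ± 17 TPM in atg41Δ, against 875 ± 33 TPM in WT, while RPL23A was not called. The leading copy differed from WT by strain mean in 10 pairs in atg41Δ, and in 9 of these all 4 atg41Δ libraries were on the other side of 50% from all 4 WT libraries, among them RPL1, RPL11, RPL23, RPP1, RPS0, RPS1, RPS10 and RPS19. RPL1 and RPL11 are among the poorly resolved pairs. In all 9 pairs the mean A share in atg41Δ lay between 45.7% and 56.2%, and the WT mean of RPL23 was 35.5%.

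RPS21, for a 40S protein, had an A share of 76.7%, 76.4%, 78.9% and 75.4% in atg41Δ, and 62.2%, 63.4%, 62.6% and 62.7% in WT (0.98 ± 0.06). RPS21B fell (log2 fold change -1.31, edgeR adjusted p = 7.22e-05) and RPS21A was not called, but was without atg1Δ replicate 1 (-0.33, edgeR adjusted p = 0.000107). RPS22 had an A share of 80.9%, 79.5%, 79.0% and 82.1% in atg41Δ, and 68.9%, 67.9%, 67.5% and 68.7% in WT (0.93 ± 0.07), as the intron-bearing B copy fell further than the A copy (-0.87 ± 0.25).

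RPL15 was the pair with copies called in opposite directions when the deletion strains were compared. Its A share was 86.1%, 86.0%, 88.8% and 85.9% in atg41Δ, and 92.4%, 93.2%, 92.6% and 92.1% in WT (-0.93 ± 0.11). In atg41Δ against atg1Δ both copies were called, the A copy lower (-1.15 ± 0.14, edgeR adjusted p = 1.27e-05) and the B copy higher, and it was the only pair with opposite calls there. In atg1Δ the A share was 96.5%, 94.7%, 92.4% and 94.1%, with replicate 1 highest and replicate 3 within the WT range. RPL36, beside the deleted gene, had an A share of 24.5%, 23.2%, 20.6% and 25.4% in atg41Δ, and 30.2%, 28.7%, 31.5% and 27.1% in WT (-0.44 ± 0.11), without overlap.

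**Figure D5:**
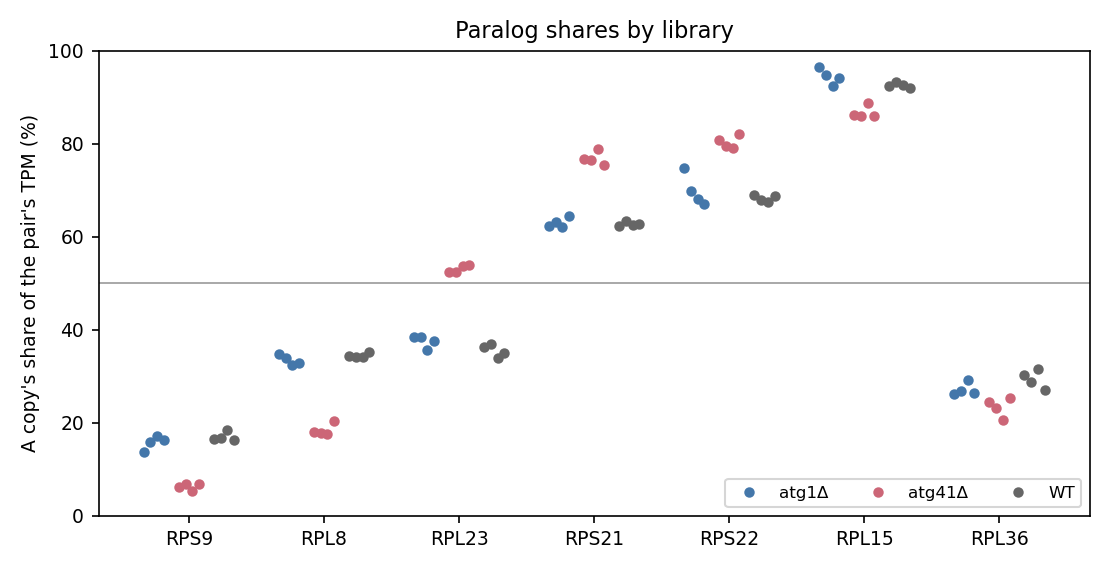
Share of the pair's TPM from the A copy (%, y axis) in each library for 7 pairs (x axis), coloured by strain with atg1Δ, atg41Δ and WT from left to right and a line at 50%. In each pair the 4 atg41Δ points are clear of the 4 WT points, and RPL23 crosses 50%.

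In atg1Δ the pairs that did not overlap with WT shifted little. RPL7 had an A share of 88.1 ± 1.2% in atg1Δ and 86.2 ± 0.44% in WT (difference of log2 ratio 0.26 ± 0.09), RPS14 92.2 ± 0.82% in atg1Δ and 90.9 ± 0.35% in WT (0.24 ± 0.09), and RPL18 88.3 ± 1.2% in atg1Δ and 86.8 ± 0.47% in WT (0.21 ± 0.10; SD, n = 4 each, and SE for the differences). RPL4 (-0.13) and RPL24 (0.13) differed by less. Of the 8 pairs without overlap, 4 were among the 42 with all windows informative and 4 among the other 16. The informative windows were 62.3% in RPL7 and 47.2% in RPL4. Without atg1Δ replicate 1 the differences were 0.19 for RPL7, 0.17 for RPS14, 0.12 for RPL18, -0.06 for RPL4 and 0.09 for RPL24, and 11 pairs did not overlap. Without atg1Δ replicate 3, 20 pairs did not overlap.

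Genes that make or serve ribosomes were set beside the group, and their counts in atg41Δ against WT are to be read against the 35.9% of all genes called lower and the 29.9% called higher. Ribosome biogenesis factors were taken by name alone (NOP, UTP, RRP, NOC, BRX, EBP, RLP, RPF, NSA, NUG, ENP, KRR or DBP plus digits), so not all need have that role. They fell in 71 of 77 and rose in 2 in atg41Δ against WT (median log2 fold change -0.85). The 8 RNA polymerase I genes, with RRN3 counted among them, all fell (median -0.77). Their enzyme transcribes ribosomal RNA. The list of dedicated chaperones of ribosomal proteins fell in 13 of 13 (median -0.66). It also holds genes that are not such chaperones, among them ARX1, for a 60S export factor, and ALB1, for its partner. ALB1 changed by -1.42 ± 0.13 and SYO1, whose product carries Rpl5 and Rpl11 into the nucleus, by -1.11 ± 0.12. In atg1Δ against WT, 6 of 77 biogenesis factors, 0 of 8 polymerase genes and 1 of 13 genes of the chaperone list were lower and 0 were higher, where 3.34% of all genes were lower and 0.387% higher.

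Other parts of the translation machinery did not share the fall as a whole. Against the 35.9% of all genes called lower, 19.4% of mitochondrial ribosomal protein genes, 34.6% of initiation factors, 42.9% of elongation and termination factors and 41.2% of ribosome-associated proteins were lower. Mitochondrial ribosomal protein genes rose in 23 of 67 and fell in 13 in atg41Δ against WT (median 0.04). Initiation factors rose in 4 of 26 and fell in 9 (median -0.08), and elongation and termination factors rose in 4 of 14 and fell in 6 (median 0.04). Of 17 ribosome-associated proteins 7 fell and 4 rose. ASC1, the RACK1-like protein on the head of the 40S subunit, averaged 405 CPM in atg41Δ and 829 CPM in WT (-1.03 ± 0.23), and LSO2, a ribosome-binding factor used on recovery from starvation, averaged 6.15 CPM in atg41Δ and 16.9 CPM in WT (-1.45 ± 0.17).

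Among 26 regulators of ribosomal protein genes, 13 fell and 4 rose in atg41Δ against WT, 50% and 15.4% where 35.9% and 29.9% of all genes did. IFH1, the coactivator at ribosomal protein promoters, averaged 22.3 CPM in atg41Δ and 59.98 CPM in WT (-1.43 ± 0.20, edgeR adjusted p = 5.39e-05). FHL1, its promoter partner, changed by -0.61 ± 0.08, RAP1 by -0.52 ± 0.05, HMO1 by -0.70 ± 0.08 and SFP1 by -0.44 ± 0.05. The repressor TOD6 of biogenesis genes also fell (-1.17 ± 0.08), and CRF1, a corepressor that competes with Ifh1 for Fhl1, rose (0.63 ± 0.09, 34.8 CPM in atg41Δ and 22.4 CPM in WT). In atg1Δ against WT, 1 of the 26 was lower and 0 were higher.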

How the data were processed

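Per the labels' protocols the libraries were made with Illumina TruSeq v2, a kit that does not mark strand. The submitters' processing notes name BWA, STAR, RSEM and edgeR, with no roles or versions, and neither build nor annotation is given in the sources used here. The deposited expected counts (estimated counts per gene), TPM and FPKM were used as the authors gave them. Gene lengths implied by the deposited values equal the coding sequence less a read, so levels cover coding sequence, and the authors' counting splits reads shared by paralogs: 18.4% of all expected counts and 51.7% of those of members were not whole. Another 12 columns carry names of none of these samples and were left unused.

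Counts were rounded, scaled with TMM and tested in edgeR 4.0.16 (R 4.3.3, quasi-likelihood F test, robust, 12 libraries in 1 fit, strain as factor, minimum count 10, minimum total 15), two-sided, with Benjamini-Hochberg adjustment over 6195 genes and a threshold of 0.05. SE is the fold change's size over the square root of F. The fit and the pair test were checked on simulated data, the pair test only with most simulated pairs shifted. Pair ratios are log2 of expected counts plus 0.5, tested by exact permutation. Alternatives used DESeq2 1.42.0 and limma 3.58.1. Names, coordinates and sequences are those of RefSeq R64, in which 5983 of 6660 features matched.

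Genes named are the 6 highest and 6 lowest in WT, the 6 largest falls and rises called in a comparison (where none, the 4 largest values each way), those beside ATG1 or ATG41 with paralogs, the pairs with the largest shifts (6 in each comparison with WT) or opposite calls, the 4 most and 4 least equal pairs, and the stalk and ubiquitin fusion genes. Some items that this rule names are not reported here. Other names, paralogs included, were chosen after their values were seen. Members and lists were chosen with earlier results of these data known.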

Additional observations from a re-analysis of the deposited data

Results flagged for a closer look

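In each strain, the highest or lowest of the 4 libraries was compared with its neighbour for the 29 measured genes and 15 pairs named by the rule and for the summed share, 135 sets in all, and in 19 the gap, as a share of the whole range, was above Dixon's 95% critical value. Chance flags about 1 in 20 sets.

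In atg1Δ, replicate 1 was the highest library for RPL40B (506 CPM), RPL4B (1255 CPM), RPP1A (471 CPM), RPP2A (465 CPM), RPS14B (89.0 CPM), RPS25A (863 CPM) and RPS30A (323 CPM), and had the lowest A share in RPL4 (69.6%). Over all 135 tested members, this library stood apart from the other 3 in 21 and no other atg1Δ library did in any.

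In atg41Δ, replicate 3 was highest for RPP2A (106 CPM), RPS25A (332 CPM) and RPS4A (391 CPM) and for the A share of RPL15 (88.8%) and RPL24 (53.8%). Replicate 1 was lowest for RPL22B (11.5 CPM), and replicate 4 was highest for RPS29A (133 CPM) and for the A share of RPL8 (20.4%). In WT, replicate 4 was lowest for RPP2B (326 CPM) and RPS22A (219 CPM) and highest for the A share of RPL8 (35.2%).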

How the results depend on the processing

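Limits: RPL41A and RPL41B, shorter than a read, were listed at 0 TPM and left out of the main fit. The replicates' origin is not given, and paralogs under 50% informative windows rest on the authors' split of shared reads. Leaving out each library in turn gave 0 to 1 members called in atg1Δ against WT, 119 to 133 in atg41Δ against WT and 135 in atg41Δ against atg1Δ, and medians of 0.05 to 0.39, -0.99 to -0.93 and -1.39 to -1.004. It gave 8 to 20, 43 to 45 and 35 to 38 pairs without overlap, where 3 against 4 libraries make it easier to avoid overlap. Of the 125 members called in atg41Δ against WT, 119 kept the call in every leave-out, 124 in DESeq2, 122 with DESeq2 size factors and 119 after a trend on base composition and gene length was taken out. The median in atg41Δ against WT was -1.09 with equal totals, which moved the median of all genes to -0.17, and -0.75 with the trend removed. With each pair summed to 1 row, chosen after seeing the data and free of any split between copies, 75 of 77 were called in atg41Δ against WT (RPL4 and RPS2 were not) and 77 of 77 in atg41Δ against atg1Δ. As shares of counts rather than TPM, members held 6.22% in atg1Δ, 2.63% in atg41Δ and 5.27% in WT. In atg1Δ against WT, RPL22B (-0.076 to 0.27 over the leave-outs), RPL29 (-0.17 to 0.24), RPL36A (-0.047 to 0.28), RPL7B (-0.049 to 0.21) and RPS14B (-0.00048 to 0.21) changed sign without atg1Δ replicate 1, and in atg41Δ against WT RPL15B did with equal totals (-0.0036); the cause was not tested. The limma fit called 44 pairs in atg41Δ against WT and 41 in atg41Δ against atg1Δ. The labels do not say whether the numbers pair the samples. Deviations of same-numbered libraries correlated from -0.17 to 0.16 and those of differently numbered ones from -0.15 to 0.21, which cannot exclude pairing. With a replicate block 0, 126 and 135 members, and 0, 44 and 39 pairs in limma, were called in the 3 comparisons. The exact test called 0, 36 to 42 and 0 pairs with a library of the compared strains left out, and in atg41Δ against atg1Δ the smallest adjusted p was then 0.0518 to 0.0614. These counts are limited by the smallest raw p that the exact test can give.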
